A study of Drosophila melanogaster with 24 samples.

Results

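The 7 genes described here encode guidance and recognition receptors of the fly nervous system: the 4 Down syndrome cell adhesion molecule genes Dscam1, Dscam2, Dscam3 and Dscam4, and the 3 roundabout genes robo1, robo2 and robo3. They were chosen by name from 13409 genes, and each was represented by its annotated transcript with the highest total count. All 7 were among the 10993 genes that passed a filter on low counts; Dscam2 and robo3 passed through the later stages and were at or near 0 in the disc. Poly(A) RNA was sequenced from Drosophila melanogaster in 24 libraries from 4 stages in all: larval imaginal discs, taken from wandering larvae, and antennae of pupae aged 8 h, of pupae aged 40 h and of adults. At each stage there were 3 genotypes with 2 libraries each, and all carried the white allele w[1118]: wild type (+/+), heterozygotes (rn[tot]/TM6) and mutants (rn[tot]/rn[tot]). rn (rotund) is a transcription factor of the zinc-finger class, and the genotype comparisons ask which transcripts differ between carriers of rn[tot] and the wild type. TM6 is a balancer, a rearranged chromosome that keeps its homologue from recombining, so the heterozygotes differed from the wild type in carrying it as well as in the rn allele. The sources used here do not give the nature of the rn[tot] allele or the number of animals behind a library.

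Dscam proteins are single-pass immunoglobulin-superfamily receptors. Dscam1 is known for alternative splicing of mutually exclusive exons, which gives a very large set of isoforms that bind their own kind and let sister branches of one neuron avoid each other, and it is required for olfactory receptor axons to reach their glomeruli. Robo proteins are the receptors of the secreted repellent Slit: Robo1 is the main receptor that keeps axons from the midline, and in the embryonic nerve cord Robo2 and Robo3 also set the lateral position of axon tracts.

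Levels are CPM, the counts of a gene per 1e+06 counts of its library after edgeR's trimmed-mean scaling, and a change is a log2 fold change ± SE from edgeR's quasi-likelihood test. A gene was called when its p-value, adjusted over all 10993 genes tested, was under 0.05. Counts per library ran from 8060181 to 15123603 over genes. Whether the 2 libraries of a group are separate biological samples is not labelled, and p-values measure only their spread, which may be technical. In bulk tissue, fewer cells of a type and less RNA per cell cannot be told apart. Larval samples were imaginal discs and later ones antennae, so stage and tissue cannot be told apart in the step from larva to 8 h. Wild-type library 1 at 8 h stood apart: 3.82% of its counts were mitochondrial, against 1.47% in library 2, and its summed pan-neuronal level (10 genes) was 1022 CPM against 536 CPM. In heterozygous discs the mitochondrial share was 3.06% in library 1 and 1.51% in library 2. rn itself was at 42.7 and 43.7 CPM in wild-type, 48.0 and 51.1 CPM in heterozygous and 74.7 and 68.7 CPM in mutant discs. At 8 h, rn was at 127 and 79.3 CPM in wild type, 73.9 and 82.2 CPM in heterozygotes, and 48.8 and 44.6 CPM in mutants, a fall by 1.14 ± 0.26 against wild type (adjusted p = 0.027). The higher wild-type value, 127 CPM, was from the library that stood apart. From 40 h on, rn was between 1.23 and 4.98 CPM in every library.

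Dscam4 was the one member called between genotypes in the edgeR fit of all 24 libraries. Its mRNA was lower than wild type in both rn[tot] stocks in the larval disc and at 8 h. At 40 h it was back near the wild-type level. Of the 7 members, 1 was called in mutants against wild type in the larva, where 1.54% of all genes tested were called, and 1 at 8 h, where 3.36% were. In heterozygotes against wild type the same counts were 1 in the larva (1.86% of all genes) and 1 at 8 h (3.94%). All 4 of these calls were Dscam4. The edgeR fit of all 24 libraries called no member against wild type at 40 h or in the adult. This held in mutants (1.29% and 3.08% of all genes) and in heterozygotes (1.02% and 1.82%). At an unadjusted p under 0.05 there were 0 members at 40 h in either comparison, 1 in adult mutants and 2 in adult heterozygotes, and DESeq2 called none of the 7 at 40 h or in the adult. Mutants and heterozygotes were not told apart for any member at any stage by edgeR (0 of 28 tests; 0.164%, 0.091%, 0.0819% and 0.291% of all genes from larva to adult), with 0 tests at an unadjusted p under 0.05 and 0 calls by DESeq2.

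**Figure D1:**
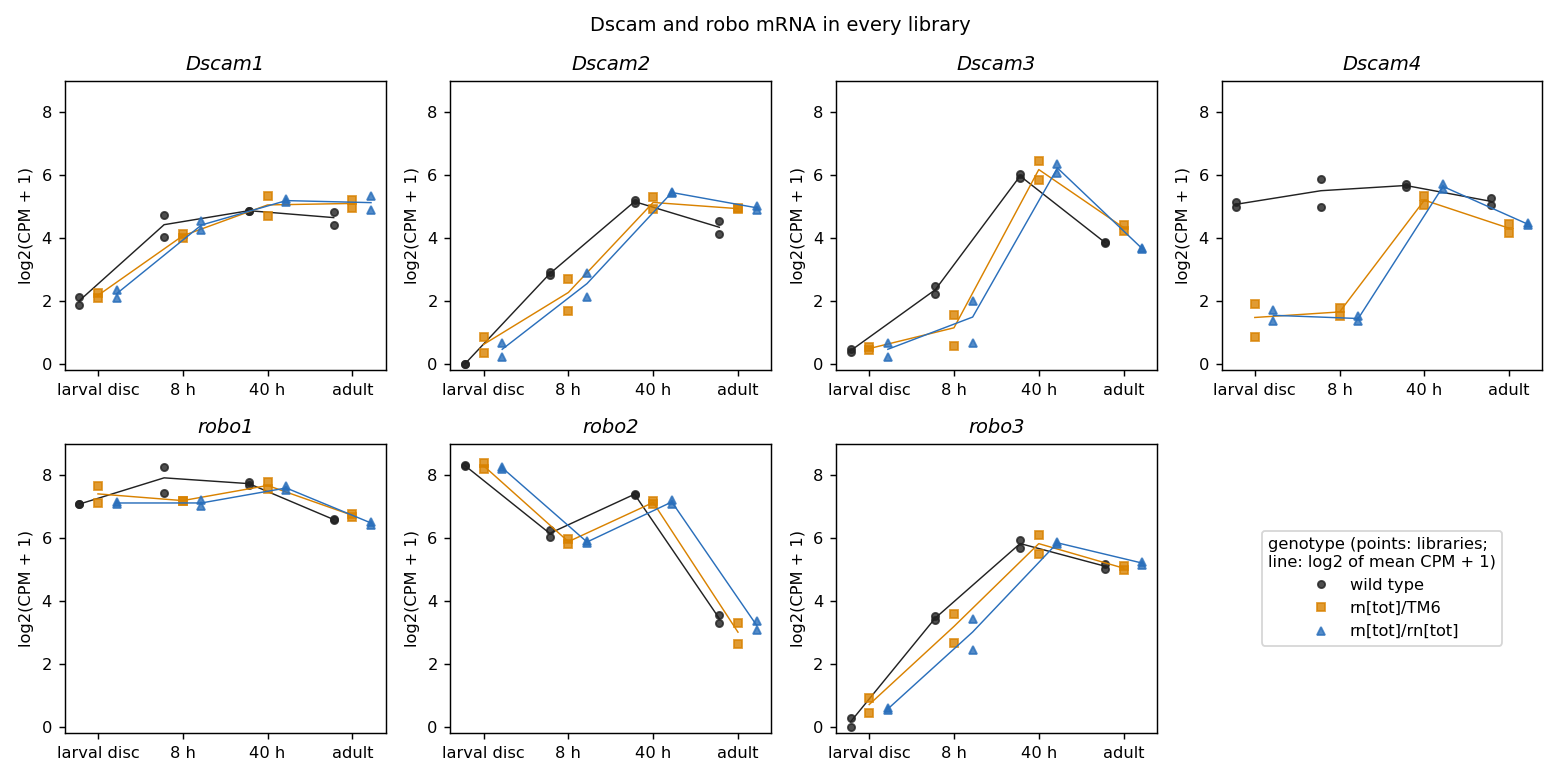
Level of each receptor mRNA, as log2(CPM + 1), in every library. Points are libraries (2 per genotype and stage) and lines join the log2 of the group means. Dscam4 in the larval disc and at 8 h separates the wild type from both rn[tot] stocks. No other member was called between genotypes in the edgeR fit of all 24 libraries.

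Dscam4 (FBgn0263219) is on chromosome 3L, from 8238647 to 8282398 on the plus strand of BDGP6, and the transcript used (FBtr0333589) is 7815 bases long. It encodes a transmembrane immunoglobulin protein like the rest of the family. In the larval disc it was at 34.8 and 30.8 CPM in wild type, at 0.807 and 2.76 CPM in heterozygotes and at 1.56 and 2.28 CPM in mutants. Both wild-type libraries were above all 4 libraries of the other stocks. Against wild type the mutant change was -4.09 ± 0.39 (adjusted p = 6.5e-06) and the heterozygote change -4.19 ± 0.39 (adjusted p = 8.8e-06).

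At 8 h Dscam4 was at 58.0 and 31.1 CPM in wild type, 1.85 and 2.44 CPM in heterozygotes and 1.58 and 1.86 CPM in mutants. The groups again did not overlap, and the higher wild-type value was from the library that stood apart. The mutant change was -4.69 ± 0.41 (adjusted p = 3e-06) and the heterozygote change -4.36 ± 0.39 (adjusted p = 7.4e-06). Without that library the changes were -4.18 (adjusted p = 5.6e-06) and -3.85 (adjusted p = 8.3e-06). The fit restricted to the 6 libraries of the stage gave -4.59 and -4.29 with adjusted p = 0.053 and 0.080, and in that fit no gene at all was called at 8 h in either comparison.

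At 40 h Dscam4 was at 48.0 and 52.3 CPM in wild type, 32.5 and 39.6 CPM in heterozygotes and 46.5 and 51.5 CPM in mutants. Wild type and mutants overlapped, and heterozygotes were below both without passing the test (-0.48 ± 0.32, adjusted p = 0.97). In the adult antenna it was at 32.4 and 37.8 CPM in wild type, 17.1 and 20.8 CPM in heterozygotes and 20.2 and 21.3 CPM in mutants. The adult groups did not overlap with the wild type, yet neither the mutant change of -0.76 ± 0.32 (adjusted p = 0.32) nor the heterozygote change of -0.89 ± 0.32 (adjusted p = 0.27) passed the test. The fit of the 6 adult libraries alone called both, with -0.74 (adjusted p = 0.014) and -0.89 (adjusted p = 0.0082). That fit called 12.9% of all genes in mutants and 8.17% in heterozygotes, against 3.08% and 1.82% in the fit of all 24 libraries.

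The size of the Dscam4 difference itself differed between stages. From 8 h to 40 h the mutant effect against wild type moved by 4.65 ± 0.51 (adjusted p = 0.0002, 1 of 7 members and 0.391% of all genes called). The heterozygote effect moved by 3.88 ± 0.49 (adjusted p = 0.0014, 1 of 7 members and 0.346% of all genes called), in a contrast added after the levels had been seen. Stated within genotypes, Dscam4 rose from 8 h to 40 h by 4.83 ± 0.41 in the mutant (adjusted p = 4.2e-08) and by 4.06 ± 0.38 in the heterozygote (adjusted p = 1.7e-07). The wild-type step was 0.17 ± 0.32 (adjusted p = 0.67). These comparisons share the same wild-type libraries. For the steps from disc to 8 h and from 40 h to adult, edgeR called no member in the difference of the effect against wild type, in mutants (0.282% and 0.746% of all genes called) or in heterozygotes (0.555% and 0.218%). At an unadjusted p under 0.05 these were 3 and 0 members in mutants and 3 and 0 in heterozygotes, and DESeq2 called robo1 and Dscam2 in heterozygotes for the first step. The difference of mutants from heterozygotes had 0 of 21 calls over the 3 steps (0%, 0% and 0.0455% of all genes), with 0 at an unadjusted p under 0.05 and 0 by DESeq2. Averaged over the 4 stages, the Dscam4 change was -2.39 ± 0.18 in mutants and -2.48 ± 0.18 in heterozygotes. It was 1 of 7 members called in each (5.53% and 4.81% of all genes), and mutants against heterozygotes had 0 calls (0.355%).

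**Figure D2:**
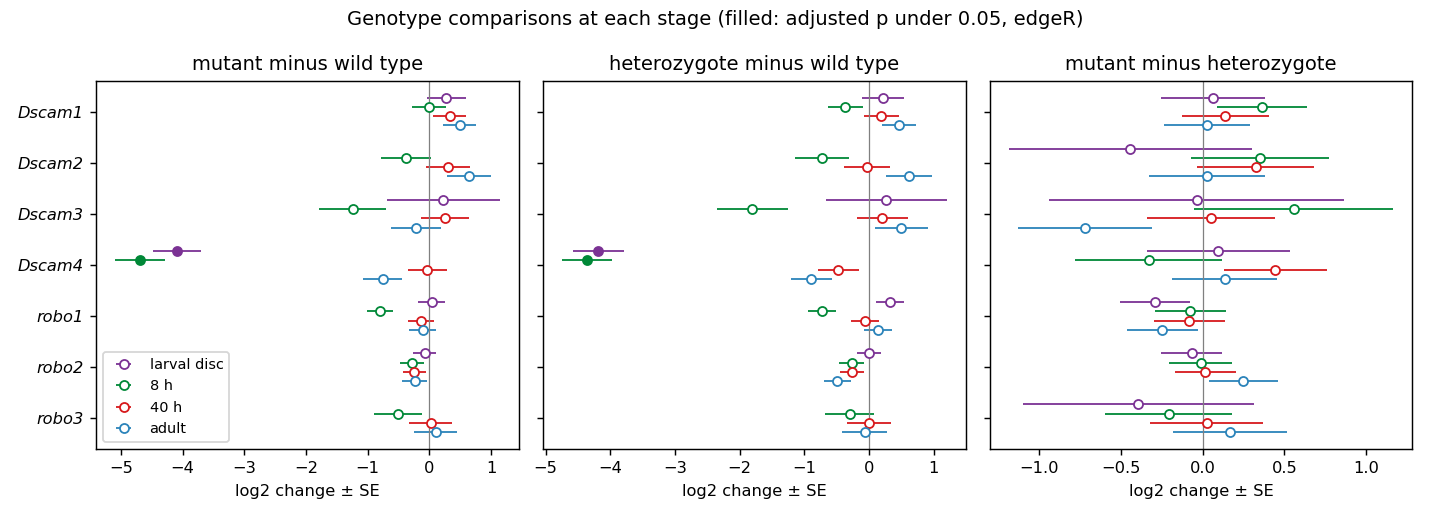
Log2 change ± SE of each receptor between genotypes at the 4 stages, with filled points where the adjusted p was under 0.05 in edgeR. Only the larval and 8 h points of Dscam4 against wild type are filled; Dscam2 and robo3 in the larva against wild type are not drawn because the wild type held 0 and 3 counts.

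All 5 annotated Dscam4 transcripts were lower in the discs of both rn[tot] stocks than in wild-type discs. FBtr0299839, the transcript with the next highest count, was at 34.4 and 29.0 CPM in wild-type discs against at most 2.59 CPM in the 4 libraries of the other stocks. FBtr0333590 was at 17.5 and 18.5 CPM in wild-type discs and at 0 CPM in both heterozygous libraries. Summed over its transcripts, and scaled to the summed transcripts of all genes, Dscam4 was at 52.2 and 48.8 CPM in wild-type discs, 1.16 and 3.76 CPM in heterozygotes and 2.32 and 2.89 CPM in mutants. Against wild type in the larva and at 8 h, the other settings and transcripts kept the direction in each case. The call held in 34 of 34 for larval mutants and in 33 of 34 for each of the other 3 comparisons, the exception being the fit of a single stage. Many of these settings left out a library of a group not compared, which hardly moved the change. Leaving out a library of the compared groups moved the larval mutant change between -4.39 and -3.84 and the larval heterozygote change between -5.33 and -3.56. At 8 h the mutant change moved between -5.07 and -4.18 and the heterozygote change between -4.74 and -3.85.

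The neighbours of Dscam4 were examined because TM6 and the rn[tot] chromosome are both homologues of the chromosome that holds Dscam4. Of 35 genes within 60 kb that are among those with deposited counts, 31 were tested. In larval discs 3 of 31 were lower in heterozygotes (0.91% of all genes were lower) and 4 of 31 in mutants (0.737%), and none was higher. At 8 h, 2 of 31 were lower in heterozygotes (2.69% of all genes) and 3 of 31 in mutants (2.38%). Named after their values were seen, these were tut, eIF4E3, CG7213 and CG34461.

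CG7213, from 8231814 to 8240601, overlaps the start of the Dscam4 span on the opposite strand without sharing exon bases. It was at 2.27 and 4.15 CPM in wild-type discs, 0 and 0.178 CPM in heterozygotes and 0 in both mutant libraries. It was at least 28.0-fold lower in mutant discs, taking 3 counts over the group as the floor, and 37.2-fold lower in heterozygous discs (interval 9.96 to 312, counting error only). tut, whose product represses translation in male germ cells, ends 27904 bases before Dscam4. It was at 12.7 and 19.7 CPM in wild-type discs, 2.87 and 0.357 CPM in heterozygotes and 1.19 and 1.35 CPM in mutants. At 40 h, where Dscam4 was not called, tut was still lower, with changes of -6.16 in heterozygotes (adjusted p = 0.0064) and -4.70 in mutants (adjusted p = 0.014). eIF4E3, an eIF4E cap-binding protein of the testis, was at 6.44 and 6.52 CPM in wild-type discs and at most 0.338 CPM in the other 4 disc libraries. On the far side of Dscam4, 1 of 16 tested genes was lower in mutants in the disc and at 8 h, and 0 of 16 in heterozygotes. That gene, CG34461, begins 43461 bases beyond Dscam4 and was at 2.65 and 1.93 CPM in wild-type discs, 1.26 and 0.357 CPM in heterozygotes and 0 in both mutant libraries. At 8 h it was at 13.7 and 12.1 CPM in wild type, 8.91 and 12.4 CPM in heterozygotes and 1.38 and 1.17 CPM in mutants (-3.32 against wild type, adjusted p = 0.0015). cert begins 130 bases beyond the end of Dscam4 and was at 61.1 and 64.2 CPM in wild-type discs, 54.5 and 55.8 CPM in heterozygotes and 58.5 and 59.0 CPM in mutants, with no call at any stage. Genotype, stock and linked sequence cannot be told apart for Dscam4, since both rn[tot] groups share at least one rn[tot] chromosome that the wild type lacks.

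**Figure D3:**
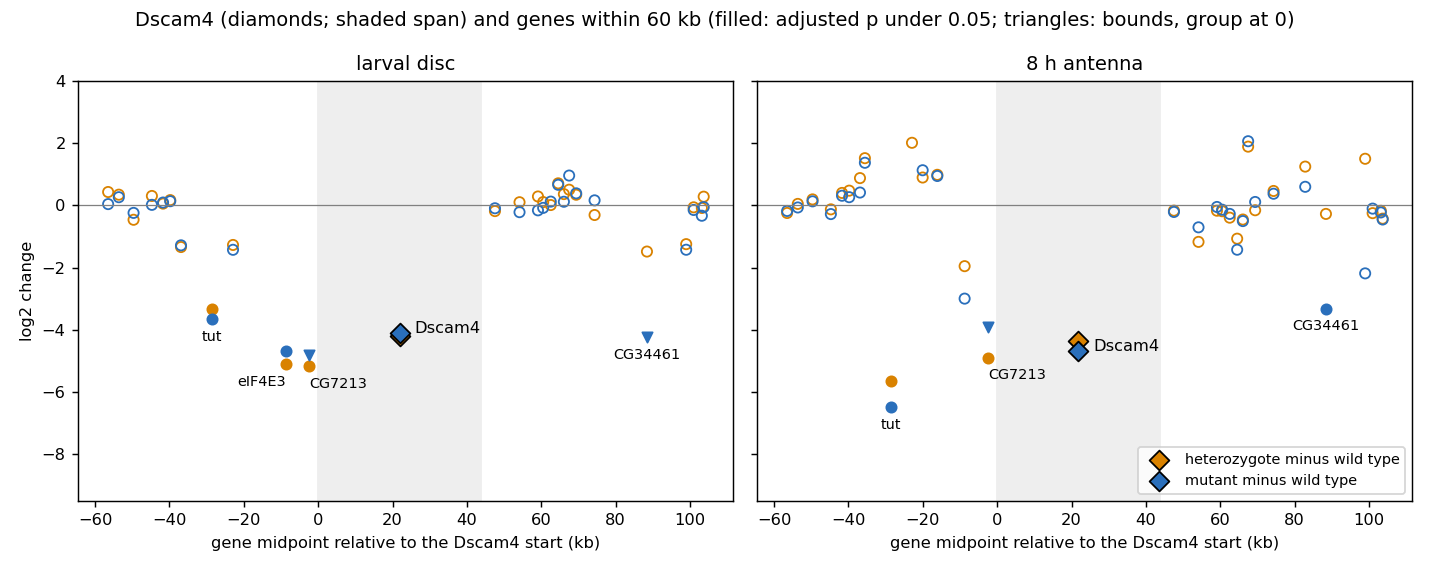
Log2 change of Dscam4 (diamonds, over its shaded span) and of the tested genes within 60 kb, against the distance of each gene's midpoint from the Dscam4 start in kb, in the larval disc and at 8 h. Filled symbols had an adjusted p under 0.05, triangles are bounds for genes at 0 counts in the lower group, and genes at 3 counts or fewer in both groups are left out; the called neighbours are below 0, while most others lie near 0.

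Dscam1 (FBgn0033159) is on 2R, from 7317924 to 7381899 on the minus strand, with 75 annotated transcripts. The one with the highest total, FBtr0334801, is 9145 bases long and ends 1630 bases beyond the 3′ end of every other Dscam1 transcript. Of its exon bases, 1672 are in no other Dscam1 transcript and 12 of these are coding. It also has 22 exons and 5841 coding bases, where the others have 24 exons and 6039 to 6113 coding bases. The long transcript therefore differs from the others in more than its 3′ end. It held 14.8% of the counts of the gene, and the other 74 transcripts held between 0.90% and 1.78% each. The antisense genes asRNA:CR45129 and asRNA:CR44071 overlap Dscam1 exons by 743 and 278 bases, and no counts were found for them. Whether the counting kept strand is not stated. Long 3′ UTR forms of Dscam1 are known from neurons.

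This long transcript was at 2.65 to 4.14 CPM (median 3.35) in the 6 disc libraries, 15.0 to 25.7 CPM (median 17.4) at 8 h, 24.9 to 39.7 CPM (median 31.4) at 40 h and 20.6 to 39.3 CPM (median 29.6) in the adult. Disc and 8 h ranges did not overlap, whereas those of 8 h, 40 h and adult overlapped in turn. It rose from disc to 8 h by 2.74 ± 0.31 in wild type (adjusted p = 2.9e-06), 2.16 ± 0.30 in heterozygotes (adjusted p = 3.7e-05) and 2.46 ± 0.30 in mutants (adjusted p = 8.3e-06). From 8 h to 40 h it rose by 1.03 ± 0.27 in heterozygotes (adjusted p = 0.0043) and 0.80 ± 0.27 in mutants (adjusted p = 0.019). In wild type that step was 0.47 ± 0.27 (adjusted p = 0.16), and 0.88 (adjusted p = 0.020) without the library that stood apart. The heterozygote call was lost without heterozygote library 2 at 40 h (0.71, adjusted p = 0.076), and the mutant call without mutant library 2 at 8 h (0.66, adjusted p = 0.14) or at 40 h (0.75, adjusted p = 0.083).

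The other Dscam1 transcripts did not follow the long one between 8 h and 40 h. Summed, they were at 40.7 to 48.0 CPM in the disc, 164 to 219 CPM at 8 h, 117 to 166 CPM at 40 h and 99.1 to 146 CPM in the adult. They fell from 8 h to 40 h by 0.75 ± 0.17 in wild type (adjusted p = 0.0017) and by 0.51 ± 0.17 in mutants (adjusted p = 0.020), and the heterozygote step was -0.26 ± 0.17 (adjusted p = 0.21). The long transcript's share of Dscam1 counts was 6.11% to 7.96% in the disc, 7.06% to 10.5% at 8 h, 17.5% to 21.0% at 40 h and 15.2% to 26.5% in the adult. The 12 libraries of the disc and 8 h were thus all below the 12 of 40 h and adult. The split of shared reads among Dscam1 transcripts by the authors' counting is not stated, so these are shares of deposited counts and not of molecules. The comparison of the long transcript with the rest was added after the values had been seen.

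**Figure D4:**
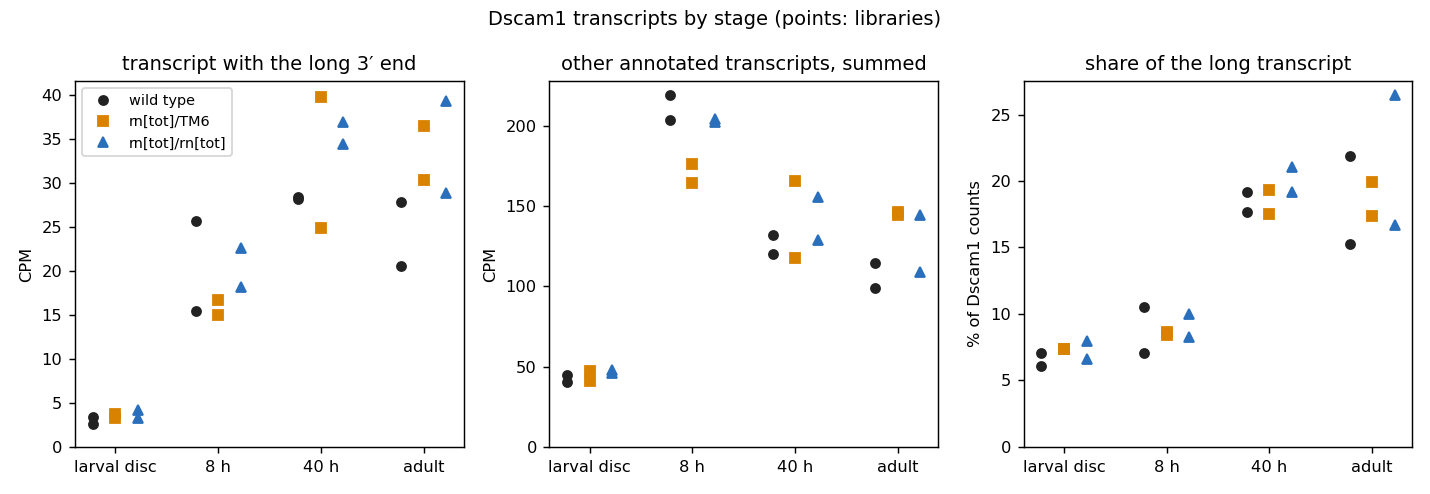
Dscam1 by stage in every library: CPM of the transcript with the long 3′ end, summed CPM of the other 74 annotated transcripts, and the long transcript's share of all Dscam1 counts in percent. The share is at most 10.5% in the disc and at 8 h and at least 15.2% afterwards, in all 3 genotypes.

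Dscam2 (FBgn0265296, 3L, 7159199 to 7189931, minus strand) mediates avoidance between neighbouring cells of one class in the fly visual system. It was at 0 counts in both wild-type discs, at 0.807 and 0.268 CPM in heterozygous discs and at 0.593 and 0.169 CPM in mutant discs. At 8 h it ran from 2.19 to 6.56 CPM (median 5.77), at 40 h from 29.7 to 43.6 CPM (median 37.4) and in the adult from 16.5 to 31.7 CPM (median 29.0). The ranges of disc, 8 h and 40 h did not overlap, and those of 40 h and adult did. In wild type, Dscam2 rose at least 50.2-fold from disc to 8 h (adjusted p = 3.2e-06) and by 2.47 ± 0.39 from 8 h to 40 h (adjusted p = 6.6e-05). The step to the adult was -0.85 ± 0.36 (adjusted p = 0.058). In the adult the wild-type libraries were at 16.5 and 22.2 CPM, below heterozygotes at 30.2 and 29.2 CPM and mutants at 28.8 and 31.7 CPM. The fit of all 24 libraries called neither difference (0.62 and 0.65, adjusted p = 0.78 and 0.55). The fit of the 6 adult libraries alone called both (0.62 and 0.66, adjusted p = 0.048 and 0.030). That fit called 8.17% of all genes in heterozygotes and 12.9% in mutants. In the disc the heterozygotes were at least 4.30-fold above the wild type and the mutants at least 3.17-fold, without a call (adjusted p = 0.092 and 0.18). With counts summed over transcripts both were called (adjusted p = 0.013 and 0.022), at a level of at most 1.25 CPM on the summed scale.

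Dscam3 (FBgn0261046, 3R, 17473935 to 17505667, minus strand), a further transmembrane family member, peaked at 40 h. It was at 0.169 to 0.593 CPM (median 0.368) in the disc, 0.488 to 4.59 CPM (median 2.49) at 8 h, 57.3 to 86.1 CPM (median 65.9) at 40 h and 11.5 to 20.6 CPM (median 13.6) in the adult. The lowest 40 h library exceeded every library of the other stages. From 8 h to 40 h Dscam3 rose by 3.89 ± 0.47 in wild-type, 5.90 ± 0.53 in heterozygous and 5.40 ± 0.52 in mutant antennae (adjusted p = 2.6e-06, 9.1e-08 and 1.8e-07). From 40 h to adult it fell by 2.19 ± 0.42, 1.90 ± 0.41 and 2.67 ± 0.42 (adjusted p = 0.00028, 0.00085 and 4.9e-05). At 8 h the wild-type libraries were at 3.69 and 4.59 CPM, the heterozygotes at 1.95 and 0.488 CPM and the mutants at 0.593 and 3.03 CPM. Neither stock overlapped the wild type there, and the differences were -1.80 ± 0.55 (adjusted p = 0.072) and -1.25 ± 0.54 (adjusted p = 0.17). DESeq2 called the first of these (-1.81, adjusted p = 0.016).

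robo1 (FBgn0005631, 2R, 22692524 to 22700970, minus strand) had stage medians between 95.2 and 203 CPM. It was at 133 to 199 CPM (median 137) in the disc, 127 to 309 CPM (median 147) at 8 h, 184 to 220 CPM (median 203) at 40 h and 85.2 to 109 CPM (median 95.2) in the adult. Adult libraries were all below those of the other stages. The fall from 40 h to adult was 1.15 ± 0.22 in wild type (adjusted p = 0.00028), 0.96 ± 0.22 in heterozygotes (adjusted p = 0.0013) and 1.12 ± 0.22 in mutants (adjusted p = 0.00035). In wild type robo1 was called higher at 8 h than in the disc (0.84 ± 0.22, adjusted p = 0.0061), but without the library that stood apart the step was 0.36 (adjusted p = 0.16).

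At 8 h robo1 was at 309 and 172 CPM in wild type, 145 and 145 CPM in heterozygotes and 148 and 127 CPM in mutants. The stocks did not overlap the wild type, and its 2 libraries were far apart. The mutant difference was -0.80 ± 0.22 (adjusted p = 0.053) and that of heterozygotes -0.73 ± 0.22 (adjusted p = 0.068). DESeq2 called both (adjusted p = 0.011 and 0.020). Without the library that stood apart they were -0.32 (adjusted p = 0.71) and -0.25 (adjusted p = 0.82). With it as the only wild-type library at 8 h they were -1.16 (adjusted p = 0.00011) and -1.09 (adjusted p = 0.00017), in a fit that called 42.3% and 42.4% of all genes.

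robo2 (FBgn0002543, 2L, 1380086 to 1420453, minus strand) was highest in the disc and lowest in the adult. It was at 294 to 334 CPM (median 310) in the disc, 54.8 to 75.7 CPM (median 59.9) at 8 h, 134 to 169 CPM (median 145) at 40 h and 5.17 to 10.8 CPM (median 8.87) in the adult. No 2 stages overlapped. In wild type it fell by 2.17 ± 0.20 from disc to 8 h (adjusted p = 2.7e-07), rose by 1.26 ± 0.19 to 40 h (adjusted p = 3.3e-05) and fell by 4.08 ± 0.22 to the adult (adjusted p = 1.5e-10). The same 3 steps were called in heterozygotes (-2.44, 1.26 and -4.31) and in mutants (-2.38, 1.29 and -4.08). Wild-type libraries lay above both stocks at 8 h (75.7 and 64.2 CPM against at most 61.4 CPM) and at 40 h (165 and 169 CPM against at most 148 CPM), without a call (-0.28 to -0.25, adjusted p = 0.35 to 0.99). A pair of annotated noncoding genes overlap its exons, asRNA:CR44897 by 1422 bases and lncRNA:CR44898 by 1241 bases. No counts were found for either, which can mean a value of 0 or a gene left out of the counting. The library kit keeps strand, but whether the counting used it is not stated. Reads of these genes therefore cannot be told apart from those of robo2.

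robo3 (FBgn0041097, 2L, 1256417 to 1296596, plus strand) was nearly absent from the disc, with 0 and 0.222 CPM in wild type, 0.896 and 0.357 CPM in heterozygotes and 0.445 and 0.508 CPM in mutants. It then ran from 4.44 to 10.9 CPM (median 9.61) at 8 h, 44.2 to 67.0 CPM (median 56.6) at 40 h and 30.7 to 37.0 CPM (median 33.9) in the adult. No 2 stages overlapped. The wild-type rise from disc to 8 h was 79.3-fold (interval 26.7 to 388, counting error only) on 3 disc counts (adjusted p = 1.3e-06). From 8 h to 40 h robo3 rose by 2.48 ± 0.38 in wild-type, 2.78 ± 0.38 in heterozygous and 3.01 ± 0.39 in mutant antennae (adjusted p = 3.2e-05, 1.0e-05 and 5.5e-06). The step to the adult was -0.74 ± 0.35, -0.80 ± 0.35 and -0.66 ± 0.35, with no call (adjusted p = 0.084, 0.062 and 0.12).

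Over the 3 stage steps, 13 of 21 tests of the members were called in wild type, 14 of 21 in heterozygotes and 15 of 21 in mutants. From disc to 8 h, 6 of 7 members were called in wild type (5 higher and 1 lower), where 39.3% of all genes were called, 22.4% higher and 17% lower. In heterozygotes 4 of 7 were called (3 higher and 1 lower; 29.6% of all genes, 15.9% higher and 13.8% lower), and in mutants 5 of 7 (4 higher and 1 lower; 26.7%, 15.4% and 11.3%). From 8 h to 40 h, 4 of 7 were higher in wild type (54.8% of all genes called, 26.9% higher and 28% lower), 6 of 7 in heterozygotes (53.7%, 28.2% and 25.5%) and 6 of 7 in mutants (53.9%, 28.4% and 25.5%), and none was lower. From 40 h to adult 3 of 7 were lower in wild type (54.6% of all genes called, 28.8% higher and 25.8% lower), 4 of 7 in heterozygotes (54.7%, 28.8% and 26%) and 4 of 7 in mutants (55%, 29.3% and 25.7%), and none was higher. Counted in both directions, 3 or 4 of 7 is near the 53.7% to 55% of all genes called in the later steps. The median wild-type change of the members was 2.74, 1.26 and -0.85 for the 3 steps, beside 0, 0 and 0.01 over all genes tested, and the first stays 2.74 with Dscam2 at its bound. Pan-neuronal markers moved over the same steps, with 7, 8 and 9 of 10 called higher in wild type. Their sum was 103 to 191 CPM in the disc, 389 to 1022 CPM at 8 h, 1355 to 1747 CPM at 40 h and 4002 to 4461 CPM in the adult, with none at 0 in any group. Their part in the receptor levels was not tested. Summed markers of olfactory neurons were at 3.56 to 6.43 CPM in the disc and 3008 to 4917 CPM in the adult, and glial ones at 34.0 to 54.7 CPM and 358 to 537 CPM. Over all libraries the sums ran from 31.0 to 140 CPM for hemocytes, 70.5 to 1106 CPM for muscle, 39.7 to 494 CPM for fat body and 2.33 to 87.9 CPM for the eye, with ninaE or Rh3 at 0 in several groups. Tracheal markers were at 106 to 930 CPM outside 8 h, and at 9884 to 21000 CPM at 8 h. The tracheal list was split, with 2 of 4 tested genes higher and 1 lower from disc to 8 h in wild type. There serp and verm rose by 4.96 and 3.78, while btl changed by -1.60 (adjusted p = 0.0062).

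Between genes, levels were compared per length of transcript, as CPM per kilobase averaged over the 6 libraries of a stage. In the disc robo2 led at 49.9, followed by robo1 at 22.9, and Dscam1, Dscam2, Dscam3 and robo3 were at 0.374 or less. Dscam4 was at 4.20 in wild-type discs but at 0.228 in heterozygous and 0.246 in mutant discs, below Dscam1 there (0.386 and 0.405). At 8 h and later robo1 was highest, at 27.3, 31.6 and 15.0. The ratio of robo2 to robo1 had a median of 2.27 in the disc, 0.392 at 8 h, 0.793 at 40 h and 0.0932 in the adult, and the ratio of robo3 to robo2 went from 0.0015 to 0.161, 0.413 and 4.24. At 40 h the neighbours in order robo3 (10.2) and Dscam3 (8.95), Dscam4 (5.77) and Dscam2 (3.70), and Dscam2 and Dscam1 (3.51), had overlapping ranges over their libraries. The order depends on how a gene with several transcripts is counted. With counts summed over transcripts and the longest transcript as length, Dscam1 moved from 7th to 4th at 40 h and robo3 from 3rd to 7th, while robo1 remained 1st at 8 h, 40 h and in the adult. robo1 and robo2 each split nearly evenly between 2 transcripts, with 49.9% to 50.6% of robo1 counts on the one used in every library, whereas robo3 had 1 counted transcript.

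**Figure D5:**
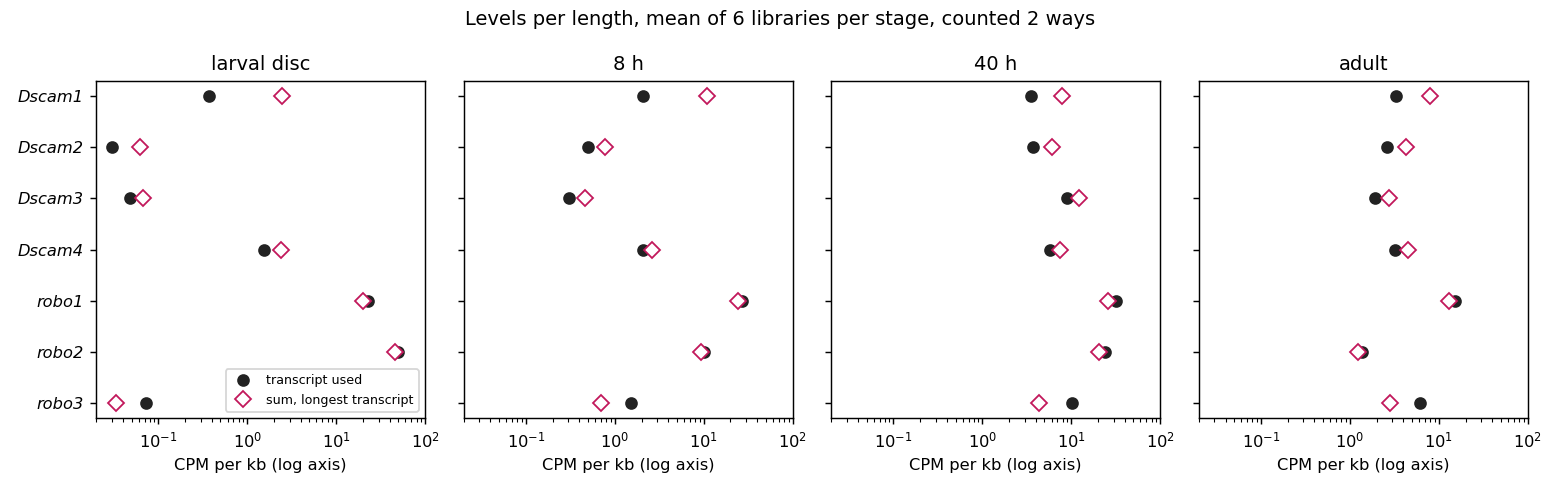
CPM per kilobase (log axis) of the 7 receptors at each stage, as means of 6 libraries, from the transcript used (filled) and from the sum over transcripts with the longest transcript as length (open). robo1 is highest from 8 h on either way. The open points of Dscam1 include its other transcripts. robo3 has 1 counted transcript, so its points differ only through the scaling to the summed transcripts of all genes. The Dscam4 means of the disc and of 8 h pool genotypes that differ.

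Across the 12 group means, the gene with the pattern most like that of Dscam2 was robo3, and the reverse also held (Pearson r = 0.995 of log2 CPM, among 8788 genes). Dscam1 was most like CCDC151, CG43901 and CG10365 (r = 0.992, 0.990 and 0.990), and Dscam3 like OtopLa, CG4393 and CG31676 (r = 0.995, 0.992 and 0.988). robo1 was most like CG4049, DCP2 and Sema1b (r = 0.981, 0.980 and 0.969), robo2 like Inx2, Ugalt and Egfr (r = 0.989, 0.982 and 0.981), and robo3, after Dscam2, like eEF1alpha2 and kek2 (r = 0.993 and 0.993). Septin4 and CG43324 came next for Dscam2 (r = 0.990 and 0.989). These correlations describe stage profiles shared by many genes of the same libraries.

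For Dscam4 the closest genes were dcma (r = 0.975), Tektin-C (r = 0.975) and CG30392 (r = 0.935). Tektin-C, on 3L at 5794405, was at a mean of 92.2 CPM in wild-type discs, 0.313 CPM in heterozygotes and 0.270 CPM in mutants, and at 140, 92.1 and 104 CPM at 40 h. dcma, on 2L at 4694721, was at 4.77, 0.179 and 0.0742 CPM in the disc and at 15.5, 7.52 and 10.7 CPM at 40 h. CG30392, on 2R, was at 26.1, 18.5 and 15.1 CPM in the disc and at 42.4, 34.6 and 33.5 CPM at 40 h. These genes were picked for their likeness to Dscam4, so the shared pattern is a description. Tektin-C is on the same chromosome arm as Dscam4, while dcma and CG30392 are on chromosome 2.

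In the lists of related genes, counts over the wild-type steps stand beside 22.4% higher and 17% lower of all genes from disc to 8 h, 26.9% and 28% from 8 h to 40 h, and 28.8% and 25.8% from 40 h to adult. Of 24 genes of the Slit and Robo pathway, all tested, 12 were higher and 1 lower at 8 h than in the wild-type disc, 10 higher and 6 lower at 40 h than at 8 h, and 2 higher and 14 lower in the adult than at 40 h. sli, the ligand, rose by 0.77 ± 0.16 to 40 h (adjusted p = 0.00068) and fell by 1.79 ± 0.17 to the adult (adjusted p = 1.0e-07). comm2, a relative of the sorting receptor comm that keeps Robo1 from the axon surface, fell by 2.70 ± 0.26 to the adult (adjusted p = 1.5e-07). Kuzbanian (kuz), the metalloprotease that cleaves Robo1, fell by 2.51 ± 0.23 (adjusted p = 9.5e-08). Of 10 genes of Dscam signalling and its regulators, 5 were higher at 8 h than in the disc, 5 higher and 2 lower at 40 h, and 1 higher and 6 lower in the adult. Among them dock, the adaptor that joins Dscam1 to Pak, rose by 0.84 ± 0.17 at 8 h (adjusted p = 0.00087) and fell by 1.14 ± 0.17 to the adult (adjusted p = 2.0e-05). Of 27 other guidance genes, 15 were higher and 2 lower at 8 h, 14 higher and 6 lower at 40 h, and 1 higher and 22 lower in the adult.

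Between genotypes, the calls by stage among these genes were all lower than wild type, and all but that of comm in adult mutants were at 8 h. In heterozygotes at 8 h, 3 of 24, 3 of 10 and 4 of 27 genes of the 3 lists were lower (2.69% of all genes were lower). In mutants at 8 h these were 1 of 24, 2 of 10 and 3 of 27 (2.38%), and some genes are in more than 1 list. Over all genes, 1.29% to 3.36% were called by stage in mutants and 1.02% to 3.94% in heterozygotes. Over the 52 genes of the 3 lists that are not members, 5 of 208 tests were called in mutants and 7 of 208 in heterozygotes against wild type, and 0 of 208 between mutants and heterozygotes (edgeR; 5 at an unadjusted p under 0.05, and 0 by DESeq2). At 8 h Abl, a tyrosine kinase downstream of Robo, was at 126 ± 63.7 CPM (SD, n = 2) in wild type, 50.2 ± 5.31 CPM in heterozygotes and 53.4 ± 2.59 CPM in mutants, with changes of -1.33 ± 0.23 (adjusted p = 0.0045) and -1.24 ± 0.23 (adjusted p = 0.0072). Its means were below wild type in both stocks at the other stages too, without a call there (adult: 145, 82.8 and 82.6 CPM). Averaged over the 4 stages, with all 24 libraries, Abl was called in heterozygotes (-0.69, adjusted p = 0.0013) and mutants (-0.81, adjusted p = 0.00024). So were comm2 (-0.52 and -0.62, adjusted p = 0.020 and 0.0053) and, in mutants, comm (-0.41, adjusted p = 0.033). These averages called 4.81% and 5.53% of all genes. sli and the formin Frl were lower in heterozygotes at 8 h (-0.63, adjusted p = 0.040, and -0.58, adjusted p = 0.045), and comm was lower in adult mutants (-0.86, adjusted p = 0.041). The netrin NetB was lower at 8 h in heterozygotes (-1.53, adjusted p = 0.012) and mutants (-1.20, adjusted p = 0.042), as was the cadherin CadN (-1.49, adjusted p = 0.014, and -1.22, adjusted p = 0.039). The netrin receptor fra and the semaphorin Sema1a were lower in heterozygotes (-0.80, adjusted p = 0.045, and -1.51, adjusted p = 0.015), and the immunoglobulin protein tutl in mutants (-0.96, adjusted p = 0.039). Most of the values at 8 h rest on wild-type library 1 of that stage. Without it NetB was at -0.89 in heterozygotes and -0.57 in mutants (adjusted p = 0.21 and 0.63), CadN at -0.76 and -0.49 (adjusted p = 0.23 and 0.66) and Sema1a at -0.82 in heterozygotes (adjusted p = 0.23). fra, sli and Frl in heterozygotes were then at -0.41, -0.46 and -0.27, and tutl in mutants at -0.47, none of them called (adjusted p from 0.33 to 0.55). Abl kept its call in heterozygotes (-0.69, adjusted p = 0.022) and not in mutants (-0.60, adjusted p = 0.054). Leaving out 1 library at a time moved the counts between 0 and 44 in mutants and between 1 and 39 in heterozygotes. The highest came without wild-type library 2 at 8 h, where 42.3% and 42.4% of all genes were called at that stage. The lowest came without either mutant library, or either heterozygous library, of 8 h, and without wild-type library 1 of 8 h they were 6 and 5 over the 4 stages.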

How the data were processed

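Poly(A) RNA was read with a stranded mRNA kit, per the labels' protocols. CASAVA 1.8, BWA 0.7.12 and DESeq2 are named in the submitters' processing notes; genome build, counting program and treatment of shared reads: not given in the sources used here. The deposited raw counts, 1 value per FlyBase transcript and library, were used for every test. The authors' normalized table, a signal per transcript, equals the counts times 1 constant per library and was used only for that check; of counts from 1 to 10, 78.53% were even.

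Of 29872 transcripts, 29393 (98.69% of counts) were matched to 13409 genes of the Ensembl BDGP6 annotation, and 479 were not matched. Each gene was its transcript with the highest total count, which keeps 45.54% of counts. edgeR 4.0.16 (R 4.3.3, limma 3.58.1) was run with TMM scaling, filterByExpr at a minimum count of 10, 12 groups and 24 libraries, giving 10993 genes, 33 contrasts, 12 residual degrees of freedom and a common coefficient of variation of 22.8%. Tests were two-sided with Benjamini-Hochberg adjustment at 0.05, and were tested on simulated data. Alternatives were DESeq2 1.42.0, median-ratio size factors, no filter, sums over transcripts, a replicate block, single-stage fits and leaving out each library; single Dscam4 transcripts, the other Dscam1 transcripts and the stage differences of the heterozygote effect were added after seeing the data. Intervals and floors (3 counts over a group) cover counting error only.

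The members, gene lists and marker lists were chosen with earlier results of these data known. Named were the 7 receptors, at most 4 called members per list and comparison by smallest p, the 3 genes most like each receptor among those with a mean of at least 5 CPM, and rn. Replicate pairs differed by more than sampling noise in all 12 groups (chi-square per degree of freedom 3.98 to 282).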

Additional observations from a re-analysis of the deposited data

Results flagged for a closer look

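The Dscam4 difference from wild type changed between 8 h and 40 h in both rn[tot] stocks, by a test of the difference itself: 4.65 (log2) in mutants and 3.88 (log2) in heterozygotes. The mutant value lost its call with the single transcript FBtr0299840 (3.45, adjusted p = 0.13). The values were 4.14 and 3.37 when wild-type library 1 of 8 h was left out. Both use the same wild-type libraries.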

How the results depend on the processing

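The Dscam4 calls and 50 single results were recomputed under the alternatives. Of 539 checks on the single results, 519 kept direction and call, 16 kept only the direction and 4 reversed; 40 of the 50 results kept both throughout. The 4 reversals were Dscam1 from 8 h to 40 h, at -0.21 in heterozygotes and -0.46 in mutants with counts summed over transcripts, and at -0.26 and -0.51 with the long transcript left out. The gene-level values differ from the single-transcript ones by construction, since the long transcript holds 14.8% of Dscam1 counts. With DESeq2, 5 of 28 member tests were called in heterozygotes against wild type in place of 2, and 5 of 21 in the averaged genotype contrasts in place of 2. For the other guidance genes against wild type, DESeq2 called 17 tests in mutants and 18 in heterozygotes, no filter gave 4 in heterozygotes, and single-stage fits gave 1 in heterozygotes; the cause was not tested. Calls over all genes moved too: at 8 h DESeq2 called 9.70% in mutants and 10.5% in heterozygotes, against 3.36% and 3.94% by edgeR, and single-stage fits called 0 genes.

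Leaving out 1 library at a time, members called ranged from 2 to 3 (mutants against wild type), 0 to 0 (against heterozygotes) and 2 to 4 (heterozygotes against wild type). Stage steps ranged from 13 to 16 in wild type, 12 to 17 in heterozygotes and 13 to 16 in mutants. Stage differences of the mutant effect ranged from 1 to 4 against wild type and 0 to 0 against heterozygotes, and averaged contrasts from 2 to 5. Guidance genes ranged from 0 to 44, 0 to 0 and 1 to 39 between genotypes, and from 89 to 118 over wild-type steps. The Dscam3 step from disc to 8 h in mutants (2.13, adjusted p = 0.036) lost its call without mutant library 2 of the disc (1.55, adjusted p = 0.22) or of 8 h (0.58, adjusted p = 0.73).

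The sources used here do not say whether libraries of the same replicate number were handled together. The difference between the 2 libraries of a group was compared between genotypes of the same stage. These differences, not the levels themselves, had correlations of -0.139 to 0.0888 over 12 pairs of groups. Low correlations cannot exclude that such libraries were handled together, since a single odd library can dominate a difference. With the replicate block, guidance calls were 2 in mutants and 4 in heterozygotes against wild type, member calls over the mutant steps were 14 in place of 15 (Dscam3 from disc to 8 h, 2.19, adjusted p = 0.057), and the other member counts were the same. With 2 libraries a group, changes of genes at a few counts, such as Dscam2 and robo3 in the disc, were measured only as bounds or wide intervals.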
